A study of Porolithon cf. onkodes and Sporolithon durum with 38 samples.

Results

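The temperature effect on the transcriptome of the crustose coralline alga Sporolithon cf. durum (S. durum) was described over both pH levels at once, from 8 libraries of algae kept at 29.5 °C and 8 libraries of algae kept at 27.2 °C. These 16 libraries are part of the 19 S. durum libraries among the 38 samples of the series, the others being of Porolithon cf. onkodes. Fragments of the alga had been kept under treatment for 3 months, and RNA was then taken from their top, pigmented layer. Elevated temperature (T) was 29.5 °C at pH 8.0 and a pCO2 of 450 µatm. Both stressors together (T + pH) were 29.5 °C at pH 7.7 and 1000 µatm. Unmanipulated seawater (control) had 27.2 °C, pH 8.0 and 450 µatm, and reduced pH (pH) had 27.2 °C, pH 7.7 and 1000 µatm. The 29.5 °C libraries comprised 3 of T and 5 of T + pH, and the 27.2 °C libraries 4 of the control and 4 of pH. Libraries are named SD with a number, as in the labels, and SD alone stands for standard deviation. The fragments had been cleaned of epiphytes as far as possible, so that RNA of other organisms may remain, and as in all bulk tissue fewer cells of a type and less RNA per cell cannot be told apart.

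The members were chosen in part from the data. Libraries SD1 and SD2 of T and SD5 of pH were left out because of their profiles. Their rank correlation with the 16 kept libraries, across transcripts, had a median of 0.157 (0.0219 to 0.236 over 48 pairs), whereas the kept libraries correlated with each other at a median of 0.870 (0.741 to 0.926 over 120 pairs), and these values are given as a description of the choice.

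Treatments follow the library names, which disagree with the totals in the study's supplementary table of read statistics. For 18 of the 19 columns the total count is the one listed there for another sample, and only SD10 carries its own. Read by their totals, 10 of the 16 kept libraries would belong to another treatment and 8 to the other temperature. The temperature term, the described transcripts and the share of the distance between libraries were also computed by listed total, and the remaining results were computed by name alone.

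Coralline algae are red algae that deposit calcite in their cell walls and bind reef rubble into a framework. In plants and algae, warming acts on the folding of proteins, on membranes and on the balance of photosynthesis and respiration. Transcripts of chaperones, which hold or refold damaged proteins, are the classical ones of a heat response. The fragments had been exposed for 3 months, so that the first hours of warming were not sampled.

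The sources used here give protein names only for S. durum transcripts that the study chose for RT-qPCR, of which 4 are described, so that no pathway or cell type list could be drawn up. Their primers are shown because they mark the stretch of each transcript that was amplified and are the only sequence given for any of them. Primers are written 5′ to 3′ in lower case.
GAPDH DN199936_c0_g1_i2 forward: acaactcgcaggaaagctca
GAPDH DN199936_c0_g1_i2 reverse: tgctttcatcggtgccctta
HSP33 DN197763_c0_g2_i5 forward: catcggtccaggtcactacg
HSP33 DN197763_c0_g2_i5 reverse: atcgcggcatagaactgagg
acetyl-CoA DN199578_c0_g1_i2 forward: agacggtgcagttggagatc
acetyl-CoA DN199578_c0_g1_i2 reverse: atatccccaccttccgatgc
serine/threonine protein phosphatase DN198856_c0_g2_i4 forward: atgcaggcccttgagtttgt
serine/threonine protein phosphatase DN198856_c0_g2_i4 reverse: tgataccgttgctctgccag

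CEL-Seq2 counted unique molecular identifiers (UMIs) per transcript of a de novo Trinity assembly. Counts were found in the 16 libraries for 51255 of 185036 transcripts, and the 39230 with a total of at least 5 counts (21.2%), from 27707 Trinity genes, were tested. Reads can be shared between isoforms of the same Trinity gene, and 2105 tested transcripts had the same counts as another isoform. Totals per library ran from 262942 to 9499485 (median 2393800) at 29.5 °C and from 775382 to 21542260 (median 1984361) at 27.2 °C. The shallowest library, SD18, was a T library and the deepest, SD9, a pH library, so that both temperatures held libraries of very different depth. The mean log10 total differed by -0.072 between 29.5 and 27.2 °C (two-sided exact permutation within pH level, p = 0.768).

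**Figure D1:**
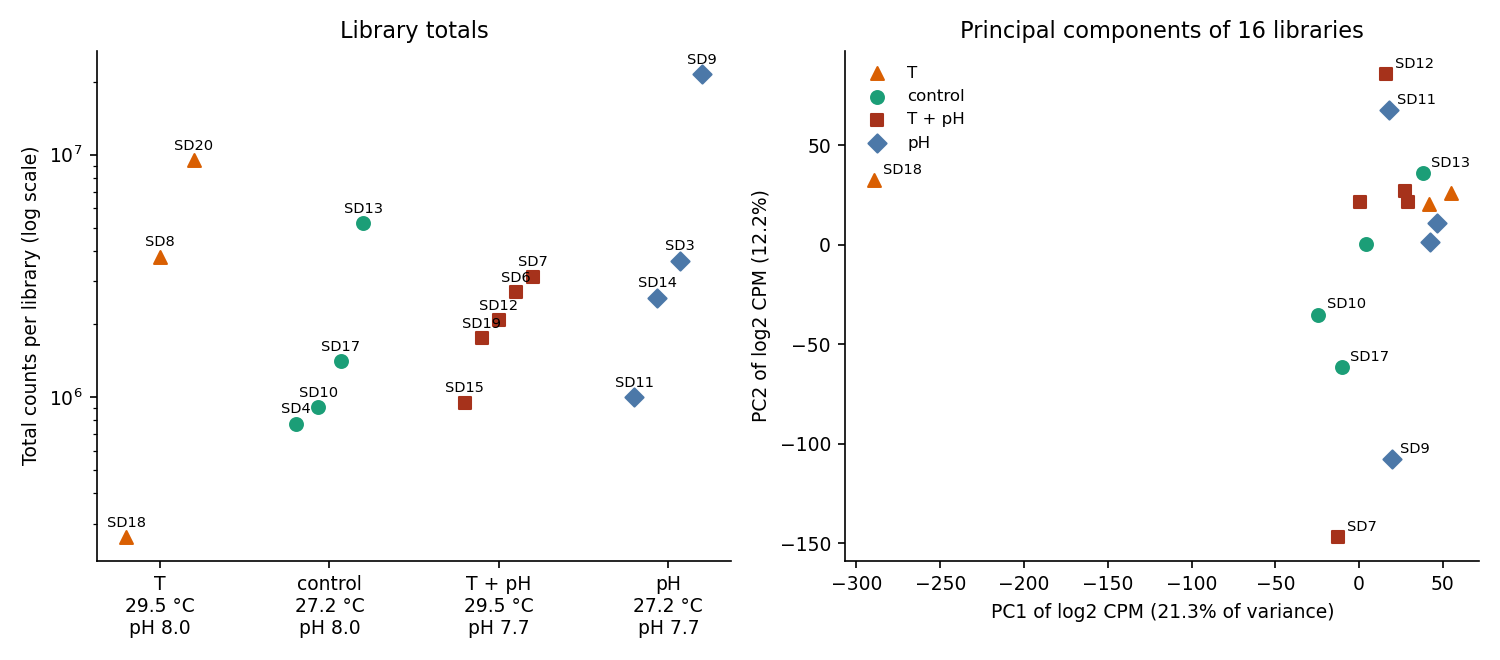
Total counts of the 16 S. durum libraries by treatment on a log scale (left) and their position on the first and second principal components of log2 CPM (right), with 1 point per library. SD18 has the smallest total, 262942, and stands alone on PC1, and apart from it the libraries of both temperatures overlap on both components.

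The share of the distance between libraries that fell to temperature was near the mean over rearranged temperature labels. Temperature took 6.74% of the squared distance between libraries within pH levels, where the mean over all arrangements of the temperature labels was 7.17% (exact permutation test within pH level, upper tail, p = 0.604). The smallest p this test can give is 0.000227. PC1, with 21.3% of the variance, set SD18 apart from the other 15 libraries, and PC2 and PC3 took 12.2% and 9.99%. When single libraries were left out the share ran from 6.67% (without SD18) to 8.32% (without SD20, where the mean over arrangements was 7.65%), with exact permutation p between 0.271 and 0.758. With treatments by listed total it was 8.15%, against a mean of 7.14% over arrangements (exact permutation p = 0.175).

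Neither the number of detected transcripts nor the likeness of libraries to each other differed between temperatures beyond the spread between libraries. After all libraries had been thinned to 262942 counts, between 18752 and 21449 transcripts (median 19781.5) were detected at 29.5 °C, and between 18805 and 20926 (median 20364.5) at 27.2 °C. The difference of the means was -359.9 transcripts (exact permutation within pH level, p = 0.394), and without thinning it was -1007.9 (exact permutation, p = 0.738). The rank correlation of a library with the other 15, as a median per library, lay between 0.771 and 0.882 at 29.5 °C and between 0.851 and 0.896 at 27.2 °C, with SD18 lowest. The difference of the means was -0.0119 (exact permutation, p = 0.534) and, after thinning, -0.00978 (exact permutation, p = 0.282). The 10 most abundant transcripts held a median of 3.56% of the counts at 29.5 °C and 3.47% at 27.2 °C (difference of the means 0.586 percentage points, exact permutation, p = 0.633). Over these 6 measures the smallest p adjusted by the Benjamini-Hochberg method was 0.768.

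No transcript was a DEG between 29.5 and 27.2 °C, which is 0% of the transcripts tested, by edgeR's quasi-likelihood test with pH level in the model. DEGs were transcripts whose log2 fold change exceeded 0.3 in size at an FDR under 0.05. The smallest FDR was 0.512. An unadjusted p under 0.05 was found for 1984 transcripts, or 5.06% of those tested, 1045 of them (2.66%) with higher and 939 (2.39%) with lower counts at 29.5 °C. When counts were scaled by library totals alone in place of TMM, 1983 transcripts had such a p, but only 823 of them had higher counts at 29.5 °C. DESeq2 and limma-voom called 0 transcripts as well, with 1106 and 1308 at an unadjusted p under 0.05. The smallest adjusted p was nearer to the threshold by DESeq2, at 0.0672, and was 0.9995 by limma-voom. DESeq2 gave an adjusted p for only 21590 of the 39230 transcripts, so that its values were adjusted over fewer tests. When single libraries were left out, the smallest edgeR FDR was 0.0631, without SD20. The pH term of the same fit likewise gave 0 DEGs (0%), with 1904 transcripts (4.85%) at an unadjusted p under 0.05. With treatments by listed total the temperature term gave 0 DEGs and 3226 transcripts (8.22%) at an unadjusted p under 0.05, with a smallest FDR of 0.308.

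**Figure D2:**
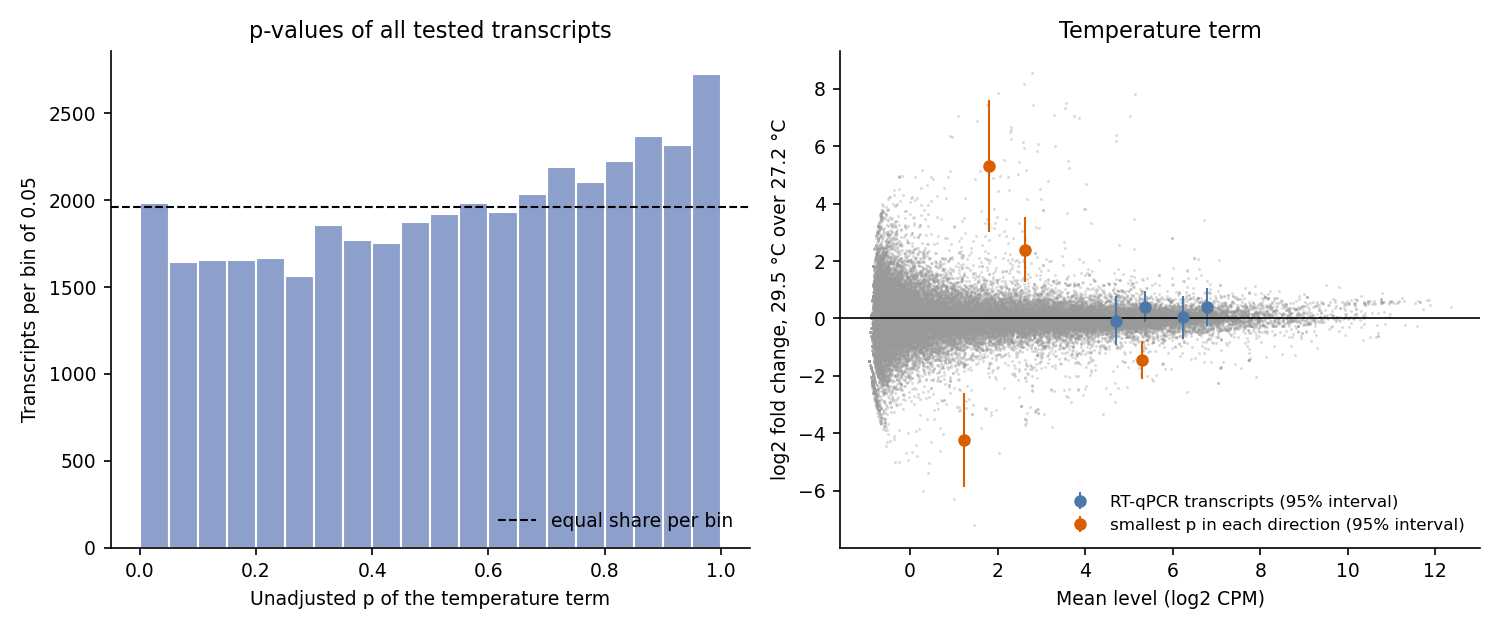
Unadjusted p-values of the temperature term for the 39230 tested transcripts in bins of 0.05 (left), and their log2 fold change, 29.5 °C over 27.2 °C, against mean log2 CPM (right), with 1 grey point per transcript, coloured points for the 8 described transcripts and bars for 95% intervals. The lowest bin holds 1984 transcripts, close to the equal share drawn as a dashed line, and the widest scatter of log2 fold changes lies among transcripts of low level.

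How large a temperature difference could have gone unseen depended on the level of a transcript. The median standard error of the log2 fold change was 0.93 for the 8200 transcripts with 5 to under 20 counts, 0.77 for the 8841 with 20 to under 100, 0.48 for the 11455 with 100 to under 1000 and 0.29 for the 10734 with 1000 or more. For 8099 of the transcripts with 1000 or more counts (75.5%) the 95% interval lay within -1 to 1, that is, within a doubling or halving. This held for 2752 (24%) of those with 100 to under 1000 counts, for 53 (0.599%) of those with 20 to under 100 and for 92 (1.12%) of those with fewer. Over all tested transcripts it held for 10996 (28%), and for most transcripts of low level the interval reached past a doubling or halving. The share was larger for under 20 counts than for 20 to under 100, although the median standard error was larger too. Those 92 intervals are therefore not read as precision. An interval within these bounds does not mean that a doubling would have passed the test. Of the transcripts with 1000 or more counts, 207 (1.93%) had an absolute log2 fold change above 1, and none of them was a DEG. Unadjusted p-values under 0.05 made up 9.57% of the transcripts with under 20 counts and 2.59% of those with 1000 or more.

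The temperature difference was also taken at each pH level, between T and control libraries at pH 8.0 and between T + pH and pH libraries at pH 7.7, which share no library. At pH 8.0 there were 0 DEGs (0%) and 1792 transcripts (4.57%) at an unadjusted p under 0.05 by edgeR. At pH 7.7 there were likewise 0 DEGs (0%), and 1656 transcripts (4.22%) at such a p. Across all tested transcripts, which are not independent of each other, the log2 fold changes at both pH levels had a Pearson correlation of 0.061 and a Spearman correlation of 0.039, and 19608 transcripts (50%) had the same sign. Among transcripts with 1000 or more counts the correlations were 0.15 and 0.047. They were highest among transcripts with 100 to under 1000 counts, at 0.24 and 0.056. The interaction of temperature and pH, tested by edgeR as a coefficient of its own, gave 0 DEGs (0%), a smallest FDR of 0.224 and 1646 transcripts (4.2%) at an unadjusted p under 0.05.

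**Figure D3:**
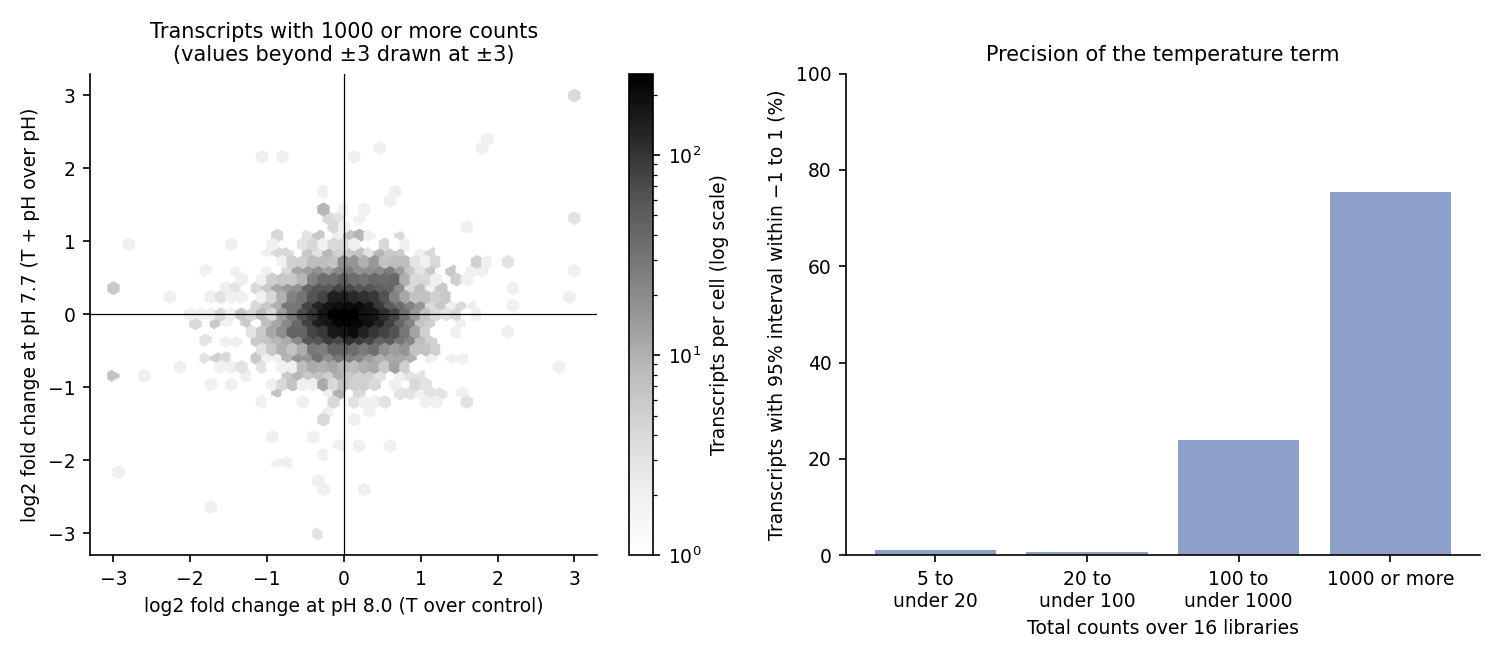
Left, log2 fold change with temperature at pH 7.7 (T + pH over pH) against that at pH 8.0 (T over control) for the 10734 transcripts with 1000 or more counts, shaded by the number of transcripts per cell. Right, percentage of transcripts in each class of total counts whose 95% interval for the temperature term lies within -1 to 1. It reaches 75.5% in the highest class and is 1.12% in the lowest, where the intervals are not read as precision.

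The alternative analyses of these contrasts called 1 transcript each, and both were singled out after their values had been seen. When T and control were fitted alone, DN198319_c0_g1_i8 had lower counts in T (log2 fold change -4.80, edgeR FDR 0.0131). It had 12, 6 and 64 counts in T, against 290, 152, 670 and 414 in control libraries. At pH 7.7 the same transcript ranged from 11 to 3494 counts in T + pH and from 37 to 1822 in pH, and its temperature term over both pH levels was -1.37 (edgeR FDR 1). DESeq2 called DN191861_c0_g1_i1 for the interaction (log2 difference -7.26, DESeq2 adjusted p = 0.00380). It had 162, 2 and 1271 counts in T, and between 1 and 15 in control libraries. In T + pH it had between 1 and 7 counts, against between 13 and 75 in pH libraries. Its temperature term over both pH levels was -0.01.

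GAPDH, the glycolytic enzyme glyceraldehyde 3-phosphate dehydrogenase and the study's reference gene for S. durum, ranged from 47.9 to 280 CPM (median 105) at 29.5 °C, against 52.0 to 144 CPM (median 97.5) at 27.2 °C. CPM were computed with TMM-scaled library sizes. The ranges overlapped, and the highest value was that of SD18. The means were 125 ± 80.3 CPM at 29.5 °C and 95.4 ± 30.9 CPM at 27.2 °C (SD, n = 8 each). Its log2 fold change was 0.40 (95% interval -0.26 to 1.05, edgeR FDR 1), but 0.16 without SD18, 0.62 without SD9 and -0.12 with treatments by listed total.

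HSP33, named after a chaperone that in bacteria is switched on by oxidation and holds unfolding proteins, showed no difference beyond the spread between libraries. It had 27.1 to 133 CPM (median 80.0) at 29.5 °C, and 12.3 to 108 CPM (median 78.9) at 27.2 °C. In T its counts differed widely, at 32.1, 27.1 and 115 CPM in SD8, SD18 and SD20. The log2 fold change was 0.05 (95% interval -0.70 to 0.79, edgeR FDR 1), with -0.04 when scaled by library totals alone and -0.28 without SD20. This interval leaves out a doubling in either direction. A further isoform of the gene, DN197763_c0_g2_i1, had a log2 fold change of 0.25 (standard error 0.58).

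The transcript annotated only as acetyl-CoA had 9.14 to 42.6 CPM (median 22.4) at 29.5 °C, against 7.23 to 49.5 CPM (median 20.0) at 27.2 °C. Values were split within treatments, with 49.5 and 46.2 CPM in 2 control libraries and 9.37 and 7.23 CPM in the other 2. Its log2 fold change was -0.07 (95% interval -0.93 to 0.78, edgeR FDR 1), with 0.09 by limma-voom and 0.25 after thinning.

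The serine/threonine protein phosphatase, an enzyme that removes phosphate groups from proteins, had 27.3 to 68.0 CPM (median 49.6) at 29.5 °C, against 16.6 to 46.8 CPM (median 36.9) at 27.2 °C. Of the 4 RT-qPCR transcripts described it had the smallest p, although its ranges overlapped. The means were 46.8 ± 14.2 CPM at 29.5 °C and 35.2 ± 10.1 CPM at 27.2 °C (SD, n = 8 each). Its log2 fold change was 0.40 (95% interval -0.13 to 0.94, edgeR FDR 1). At pH 8.0 the log2 fold change was 0.65 and at pH 7.7 it was 0.23, with an edgeR FDR of 0.9999 for the interaction. Thus 0 of these 4 RT-qPCR transcripts passed the test, and among them the interval of GAPDH alone reached past a doubling.

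**Figure D4:**
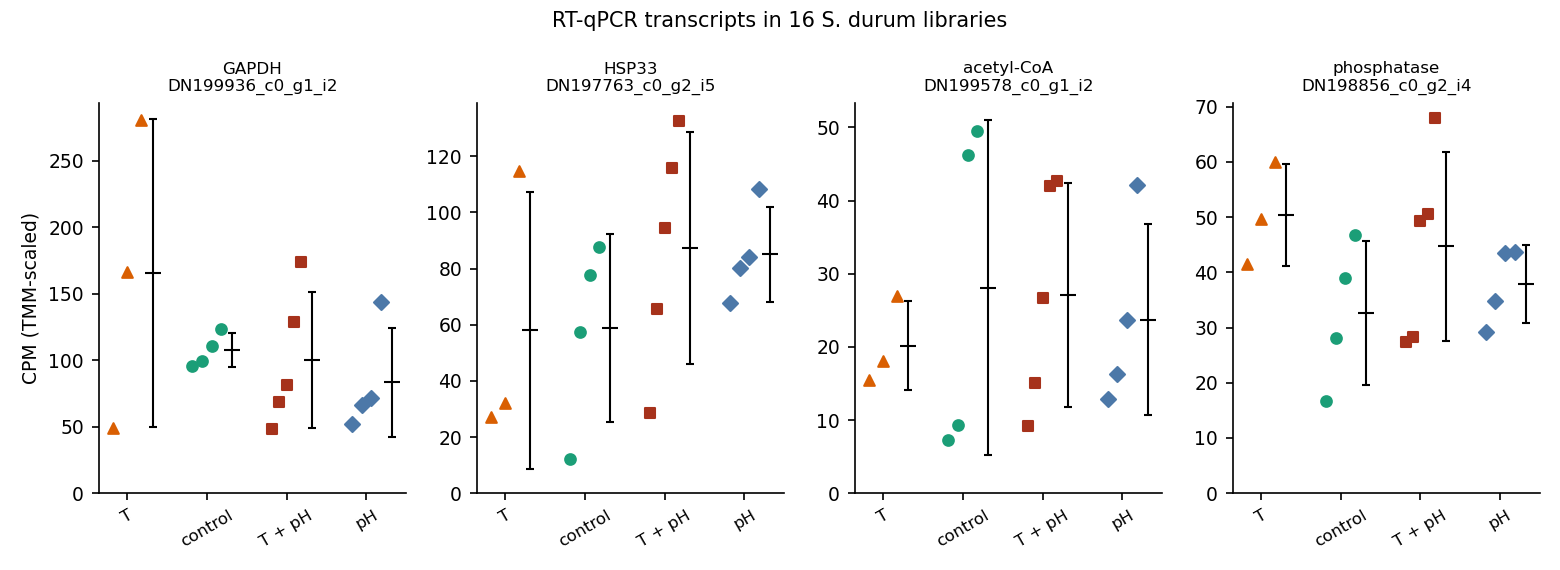
CPM of the 4 RT-qPCR transcripts in the 16 S. durum libraries by treatment, with 1 point per library and the mean ± SD beside the points (n = 3 for T, 4 for control, 5 for T + pH and 4 for pH). The ranges of T and control, and of T + pH and pH, overlap in every panel.

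The transcripts with the smallest p in each direction, among those with a count in at least 8 libraries, carry no protein name. Their values are given as a description, since none passed the test. By DESeq2, which adjusted over fewer transcripts, their adjusted p lay between 0.0672 and 0.0975. DN169805_c0_g1_i1 had 100, 1 and 14 counts in T, with up to 24.3 CPM. In T + pH it had 10, 0, 17, 0 and 0 counts. Against these, the 4 control libraries had 1, 0, 0 and 1 counts and the pH libraries 0, 1, 0 and 0. High values were thus limited to some libraries at 29.5 °C, and 3 of the 8 had no count. Pooled, 142 counts at 29.5 °C stood against 3 at 27.2 °C, a ratio of 81.2 after scaling for the summed library sizes (exact binomial 95% interval 27.2 to 399, counting error only). SD8 held 100 of these counts, and without it 42 counts stood against 3, a ratio of 29.003 (9.27 to 146), by a calculation added after the values had been seen. With the spread between libraries included, edgeR gave a fold of 39.6 with a wider 95% interval of 7.98 to 197. Its edgeR log2 fold change was 5.31 (standard error 1.11, FDR 0.735). The log2 fold change was 4.44 without SD8, 3.20 by limma-voom, 2.90 after thinning and -4.38 with treatments by listed total.

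DN200330_c1_g1_i1 had 21.2, 9.04 and 10.2 CPM in T, against 5.86, 0, 4.13 and 2.17 CPM in control libraries. In T + pH it had 7.83, 1.001, 4.61, 14.2 and 6.69 CPM, against 0.799, 0.672, 4.33 and 0.360 CPM in pH libraries. T lay above every control library, and 4 of the 5 T + pH libraries lay above every pH library. These orders rest on few counts. SD18 of T had 2 counts and SD10, the highest control library, 5, and 1 count fewer would put SD18 below SD10. SD12 of T + pH had 8 counts and SD11, the highest pH library, 4. The means were 9.34 ± 6.16 CPM at 29.5 °C and 2.29 ± 2.21 CPM at 27.2 °C (SD, n = 8 each). By edgeR its log2 fold change was 2.39, with a standard error of 0.55 and an FDR of 0.735, but -0.82 with treatments by listed total.

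In the other direction, DN190109_c0_g1_i1 had 2, 0 and 4 counts in T and none in the 5 T + pH libraries, where a count of 0 allows up to 3 counts. Against these, control libraries had 14, 5, 9 and 3 counts and pH libraries 3, 112, 0 and 5. Values at 27.2 °C were above every value at 29.5 °C except in SD11, which had no count. Its mean was 0.114 ± 0.212 CPM at 29.5 °C and 4.15 ± 5.31 CPM at 27.2 °C (SD, n = 8 each). Its log2 fold change, fitted by edgeR, was -4.23 (standard error 0.80, FDR 0.512), and its p of 1.31e-05 was the smallest of all. The log2 fold change was -2.71 after thinning, -2.72 by limma-voom and -2.38 with isoforms summed per gene, but -0.22 with treatments by listed total. Its low counts in T + pH had been seen in earlier results of these same data. Those counts enter this value too, so that the value is no independent finding.

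DN199707_c1_g2_i3 was the most abundant of these transcripts. In T it had 39.4, 13.6 and 17.2 CPM, against 38.6, 54.2, 53.4 and 14.5 CPM in control libraries, which overlap. The 5 T + pH libraries had 16.4, 28.7, 10.9, 16.2 and 19.5 CPM, all below the pH libraries at 49.0, 59.2, 119 and 71.5 CPM. Over both pH levels the medians were 16.8 CPM (10.9 to 39.4) at 29.5 °C and 53.8 CPM (14.5 to 119) at 27.2 °C. By edgeR the log2 fold change was -1.44 with a standard error of 0.33 and an FDR of 0.735, but -0.18 with treatments by listed total. It was -0.69 at pH 8.0 and -2.002 at pH 7.7, and the edgeR interaction had an unadjusted p = 0.0433 and an FDR of 0.9999.

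**Figure D5:**
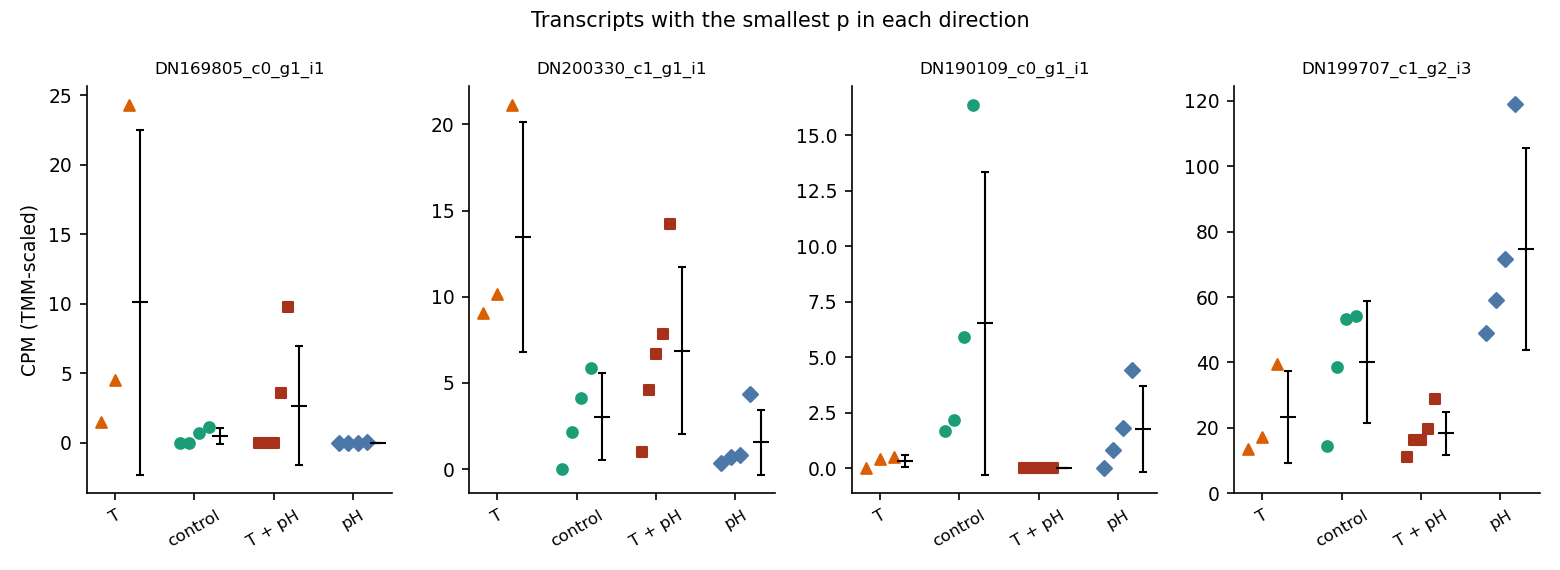
CPM of the 4 transcripts with the smallest p of the temperature term in each direction, by treatment, with 1 point per library and the mean ± SD beside the points (n = 3 for T, 4 for control, 5 for T + pH and 4 for pH). DN169805_c0_g1_i1 and DN200330_c1_g1_i1 have their highest values in T at 24.3 and 21.2 CPM, and DN199707_c1_g2_i3 has its highest in a pH library at 119 CPM.

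Between the 2 temperatures, the CPM ranges of 3 transcripts did not overlap (0.00765% of those tested), all with lower values at 29.5 °C, and they are named after their values were seen. DN190109_c0_g1_i2, an isoform of the gene above, had 31 counts at 29.5 °C and 224 at 27.2 °C. Its values were 0 to 2.03 CPM at 29.5 °C and 2.52 to 16.4 CPM at 27.2 °C (log2 fold change -1.81, edgeR FDR 0.735). Its reads may in part be those of DN190109_c0_g1_i1, so that both isoforms may stand for a single measurement. DN198808_c0_g2_i1 and DN198808_c0_g2_i5 had identical counts in every library, 15 at 29.5 °C and 78 at 27.2 °C. Both had 0 to 1.02 CPM at 29.5 °C, against 1.08 to 7.23 CPM at 27.2 °C (log2 fold change -1.88, edgeR FDR 0.770). In both genes the gap between the ranges was narrow, and 1 count more or less in a library would close it. No transcript had higher CPM in every 29.5 °C library than in every 27.2 °C library (0%).

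The most abundant part of the transcriptome was shared. Of the 200 transcripts with the highest mean at 29.5 °C, 176 (88%) were among the 200 highest at 27.2 °C. The 200 highest over all 16 libraries, at 587 to 5234 CPM, had log2 fold changes from -1.02 to 1.18 with a median of 0.28, beside 0.02 over all tested transcripts. Of these, 11 had an edgeR p under 0.05 before adjustment, 9 of them with higher and 2 with lower counts at 29.5 °C, and 3 had an absolute log2 fold change above 1. The median depended on the deepest and the shallowest library. Without SD9 and SD18 it was -0.07, and of 8 transcripts with a p under 0.05 none had higher counts at 29.5 °C. In SD9 the 10 most abundant transcripts took 0.747% of the counts and in SD18 they took 9.57%. The largest count in any of the 16 libraries was 16373, in SD9, which had 21542260 counts in all. It was 15385 of 9499485 counts in SD20 and 15937 of 5225552 in SD13, so that it hardly rose with depth among these libraries. A count above 4000 in at least 1 library was found for 1142 transcripts, which held 42.5% of all counts. Each of the 200 transcripts was among them, and in SD9 there were 1087 such transcripts. High UMI counts can be compressed near the number of distinct UMIs, and the UMI length is not given in the sources used here. The part of this in the median was not tested beyond leaving out SD9 and SD18. Its part in the shares of the 10 most abundant transcripts and in the intervals of the highest class of counts was not tested.

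Most transcripts with the largest fold changes had over 50% of their counts, not scaled for depth, in 1 library. A log2 fold change above 3 was found for 233 transcripts (0.594% of those tested), and in 168 of these (72.1%) over 50% of the counts came from 1 library. SD8 was the leading library for 113 of them and SD20 for 42, both T libraries. A log2 fold change below -3 was found for 154 transcripts (0.393%), of which 93 (60.4%) had over 50% of their counts in 1 library, and SD9, a pH library, led for 90. Over all tested transcripts, 7854 (20%) had over 50% of their counts in 1 library. SD9 alone held 35.2% of all counts, and 21542260 of the 37063462 counts at 27.2 °C. Since the shares were not scaled for depth, its lead among transcripts with lower counts at 29.5 °C cannot be told apart from its depth.

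Counts at a single temperature were found for 3944 transcripts at 29.5 °C and for 4946 at 27.2 °C, of the 51255 with a count, and nearly all of these had under 10 counts. At least 10 counts at 29.5 °C and none at 27.2 °C were found for 39 transcripts, of which 12 had all their counts in 1 library, 14 had counts in at least 3 libraries and 2 in at least 5. The reverse was found for 59 transcripts, of which 10 had all their counts in 1 library, 36 had counts in at least 3 and 5 in at least 5. The 29.5 °C libraries held 24166606 counts in all and the 27.2 °C libraries 37063462.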

How the data were processed

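Reads were trimmed by the authors and aligned by bowtie2 against their S. durum Trinity assembly, and the CEL-Seq pipeline gave UMI counts for each transcript. These deposited counts were not normalized, and replicates were not pooled. Columns were assigned to treatments by their names. The labels call the fragments of a treatment biological replicates, and p-values measure the spread between the libraries analysed. Within each treatment no pair of libraries was within sampling noise of being a copy.

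Transcripts with at least 5 counts over the 16 libraries were scaled by TMM and tested with edgeR 4.0.16 (R 4.3.3, limma 3.58.1) by the robust quasi-likelihood F-test in its earlier form, with temperature and pH as additive terms and Benjamini-Hochberg adjustment (FDR). Standard errors were the absolute log2 fold change divided by the square root of F, and intervals are 95%. Log2 CPM for distances used a prior count of 2. Permutations were exact and within pH level. Alternatives were DESeq2 1.42.0, limma-voom, other scalings, filters, models and libraries. Figures used Python 3.11.15 with matplotlib 3.10.9. The tests were first tested on simulated data.

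The described transcripts were the RT-qPCR transcripts, of which 4 are given and 1 is not reported here, and, per direction, the 2 with the smallest p among transcripts with a count in at least 8 libraries, 1 isoform per gene. Members, lists and the left-out libraries were chosen with earlier results of these data known. Intervals for counts and limits of a count of 0 cover counting error only.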

Additional observations from a re-analysis of the deposited data

Results flagged for a closer look

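A sample apart from the others of its temperature was looked for in 28 groups of 8 values, and 4 groups held one. The cut-off for a gap marks about 5% of groups whose values are normally distributed. The groups here included related measures of the same libraries and transcripts picked by smallest p, so that the 4 are not compared with that share. SD18, the shallowest library, had the lowest likeness to the other 15 libraries among those at 29.5 °C, 0.771, with a gap to the nearest library of 0.665 of the range. SD18 also had the highest share of counts in its 10 most abundant transcripts at 29.5 °C, 9.57%, with a gap of 0.697 of the range. For DN169805_c0_g1_i1 the value of SD8, 24.3 CPM, lay above the other 29.5 °C libraries by 0.597 of the range. For DN190109_c0_g1_i1 the value of SD10, 16.4 CPM, lay above the other 27.2 °C libraries by 0.641 of the range.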

How the results depend on the processing

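The temperature term gave 0 DEGs under every alternative and without each library in turn, except that 1 transcript was called (FDR 0.0131) when T and control were fitted alone. The interaction was recomputed only with all 19 libraries, by DESeq2 and without each library in turn, and gave 0 DEGs except by DESeq2, which called 1 (adjusted p 0.00380). An unadjusted p under 0.05 for temperature was found for 1984 transcripts (5.06% of those tested), for 1106 (2.82%) by DESeq2 and for 1308 (3.33%) by limma-voom. With a filter of 50 counts and 8 libraries these were 865 (3.36%) of 25714, and after thinning 1090 (4.47%) of 24385. With all 19 libraries they were 1047 (2.02%) of 51953, and with treatments by listed total 3226 (8.22%). For the interaction such a p was found for 1646 transcripts (4.2%), and for 615 of 39230 by DESeq2. With all 19 libraries it was found for 15883 of 51953, again with 0 DEGs by edgeR. Leaving out 1 library at a time gave 0 DEGs for both, a difference in mean log10 total between -0.168 and 0.065 (positive without SD9 and without SD18), a temperature share between 6.67% and 8.32% and a difference in detected transcripts between -590 and -211. No result at the level of all transcripts turned significant by these omissions.

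Directions turned for 5 of the 8 described transcripts, none of which passed the test under any alternative. With treatments by listed total the log2 fold changes were -0.12 for GAPDH, -4.38 for DN169805_c0_g1_i1 and -0.82 for DN200330_c1_g1_i1. That of HSP33 was -0.039 with library totals only, -0.0019 with the log10 total as covariate and between -0.28 and 0.17 when single libraries were left out. That of acetyl-CoA was 0.089 by limma-voom, 0.25 after thinning, 0.19 at pH 7.7 alone and between -0.22 and 0.13 when single libraries were left out. The cause was not tested. Removing transcripts with a count above 4000, an alternative chosen after seeing the data, gave 0 DEGs and 1937 transcripts (5.09%) at an unadjusted p under 0.05. No paired analysis was possible because no library number is shared between treatments. Depth limits the transcripts of low level, as the intervals by class of counts show.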
